A study of Homo sapiens with 8 samples.

Results

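The genes described here encode the subunits, assembly chaperones and activators of the proteasome, and were followed through selective ribosome profiling of TRiC, a chaperonin, and of prefoldin (PFD), which works ahead of it. Members were the protein-coding genes whose symbol is PSM, a letter from A to G and a number, with at least 100 counts summed over the 4 input libraries. Of 48 such symbols 46 were kept, out of 60664 gene identifiers in the tables. PSMA8, an alpha subunit of the testis, and PSMB11, a beta subunit of the thymus, had 0 counts in all 8 libraries and were left out. The members comprised 7 alpha ring and 7 beta ring subunits, 3 inducible beta subunits, 6 ATPases, 3 other base subunits, 8 lid subunits, 3 base assembly chaperones, 5 activators or inhibitors and 4 core assembly chaperones.

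All libraries came from U-2 OS, a human osteosarcoma line, in which the endogenous CCT4 gene (the TRiC-Halo line) or the gene of PFD4 (the PFD line) had been tagged with HaloTag by knock-in. Single edited clones were expanded according to the methods, so a line stands for a clone. Cells of both lines received cycloheximide at 100 µg/ml for 1 min and the crosslinker DSP at 2 mM for 30 min, and ribosome-protected fragments (RPFs) were sequenced from all pelleted ribosomes (input) and from ribosomes recovered through the HaloTag (pulldown). The 4 groups, an input and a pulldown of either line, had 2 replicates each. Both lines carry a tag, so no group here shows cells with neither tag.

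The proteasome degrades proteins that carry ubiquitin chains. Its core particle is a barrel of stacked rings, in which alpha subunits form the gates and beta subunits the inner chambers with the peptidase sites. The regulatory particle caps the barrel: a base with a ring of ATPases unfolds substrates, and a lid removes ubiquitin. Assembly needs dedicated chaperones, and interferon exchanges 3 of the beta subunits for inducible ones. TRiC is an ATP-driven folding chamber for cytosolic proteins such as actin and tubulin, and PFD hands such chains to it.

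The libraries held 9523128 to 32637658 counts, of which the members took 0.715% to 0.990%. Replicates correlated at r = 0.992 or above across genes in the TRiC-Halo line, but at 0.969 for the PFD inputs and 0.916 for the PFD pulldowns, and the common dispersion was 0.0153 against 0.331. The tagged genes differed between the lines in the inputs, with log2 differences (PFD line minus TRiC-Halo line) of 1.40 for CCT4 and −1.97 for PFDN4, the gene of PFD4. Of 8 markers of mesenchymal and osteosarcoma cells 7 had at least 10 counts in every library, and the 8 summed to 7569 to 11600 CPM (counts scaled to the library's size). The 4 blood markers summed to at most 0.275 CPM, and CD3E and HBB were at 0 throughout. The 4 epithelial markers, mostly CLDN4, summed to 76.5 to 94.5 CPM in the TRiC-Halo line and 22.3 to 29.6 CPM in the PFD line.

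Proteasome genes were among the well-translated genes of these cells. A level here is the normalised CPM divided by the kilobases of the longest coding sequence. Over the 4 inputs, 44 of 46 members lay above the median of 18.6 for the 12697 protein-coding genes with the same count minimum, and the median member, at 174 per kilobase, was at percentile 93.4. The beta ring stood highest, with a median of 475 and all 7 members within a 2.29-fold range (241 to 553). Lid subunits ranged from 104 to 276 around a median of 172, a 2.65-fold range. Among the core rings and the regulatory particle together, the median of the 14 ring members was 2.13 ± 0.23 times that of 17 ATPase, base and lid members (SD over 4 inputs), and 2.87 ± 0.50 times with summed exon length as the divisor.

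**Figure D1:**
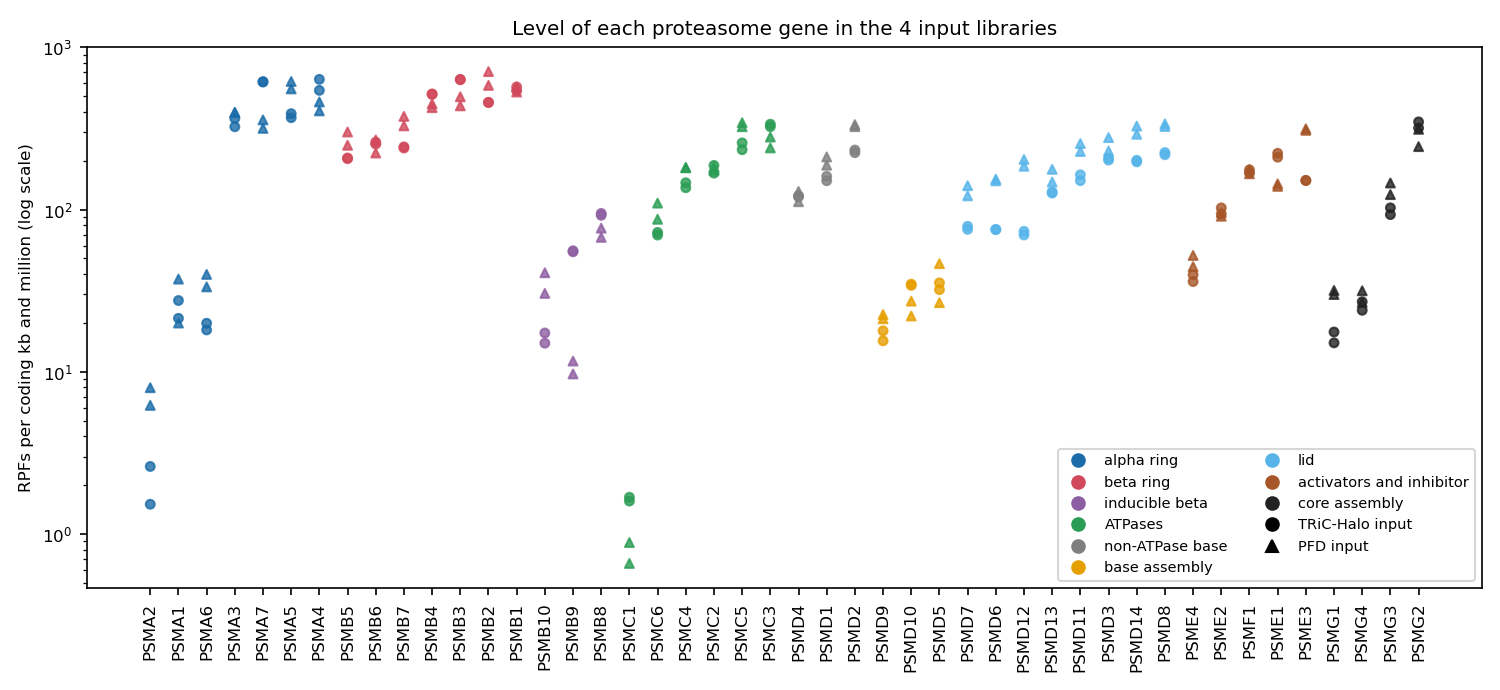
Level of each member in the input libraries, in CPM per coding kilobase on a log scale; circles are the 2 TRiC-Halo inputs, triangles the 2 PFD inputs and colours the classes. PSMA2 and PSMC1 lie below the other 44 members in every input.

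Highest and lowest members of a class are given by the mean over the 4 inputs. In the alpha ring PSMA4 had the highest mean, although PSMA7 (613) lay above it (589) in the TRiC-Halo inputs and PSMA5 (585) above it (433) in the PFD inputs. PSMA4 stood at 543 and 635 (inputs) and 442 and 514 (pulldowns) in the TRiC-Halo line, against 406 and 461 (inputs) and 287 and 407 (pulldowns) in the PFD line. PSMA2 stood at 1.52 and 2.61 (inputs) and 2.79 and 3.97 (pulldowns) in the TRiC-Halo line, against 6.2 and 7.97 (inputs) and 4.64 and 0 (pulldowns) in the PFD line. PSMA2 was the lowest of its ring in every input, although a core particle holds each alpha subunit in equal number. PSMB1 stood at 541 and 570.0 (inputs) and 456 and 456 (pulldowns) in the TRiC-Halo line, against 569.5 and 530.2 (inputs) and 451 and 435 (pulldowns) in the PFD line. PSMB5 stood at 206 and 208 (inputs) and 156 and 134 (pulldowns) in the TRiC-Halo line, against 301 and 249 (inputs) and 279 and 284 (pulldowns) in the PFD line. PSMB5, which carries the chymotrypsin-like site, thus had the lowest level of the beta ring on average. The inducible subunits, which replace the catalytic beta subunits in immunoproteasomes, were lower. PSMB8 stood at 92.1 and 94.7 (inputs) and 74.7 and 66.9 (pulldowns) in the TRiC-Halo line, against 76.7 and 67.3 (inputs) and 109.9 and 55.6 (pulldowns) in the PFD line. PSMB10 stood at 17.3 and 15 (inputs) and 12.8 and 11.9 (pulldowns) in the TRiC-Halo line, against 30.4 and 40.8 (inputs) and 14.2 and 24.8 (pulldowns) in the PFD line. The median of the 3 inducible subunits was 33.0 per kilobase, against 475 for the constitutive ring.

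Among the ATPases, PSMC3 had the highest mean and PSMC1 the lowest, although PSMC5 lay above PSMC3 in the PFD inputs (mean 334). PSMC3 stood at 336 and 324 (inputs) and 270.0 and 243 (pulldowns) in the TRiC-Halo line, against 279.6 and 239.8 (inputs) and 282 and 286 (pulldowns) in the PFD line. PSMC1 stood at 1.59 and 1.68 (inputs) and 1.06 and 1.01 (pulldowns) in the TRiC-Halo line, against 0.885 and 0.658 (inputs) and 0 and 1.89 (pulldowns) in the PFD line. PSMC1 was at or under 2 per kilobase in all libraries. PSMD2, the large scaffold subunit of the base, and PSMD4, a ubiquitin receptor, bounded the other base subunits. PSMD2 stood at 224 and 233 (inputs) and 198 and 188 (pulldowns) in the TRiC-Halo line, against 334 and 324 (inputs) and 339.6 and 330.0 (pulldowns) in the PFD line. PSMD4 stood at 121 and 119.7 (inputs) and 109 and 97 (pulldowns) in the TRiC-Halo line, against 112 and 129 (inputs) and 117 and 128 (pulldowns) in the PFD line. PSMD2 lay above PSMD4 in every library. By mean the lid was bounded by PSMD8 and PSMD7, although PSMD12 (71.5) and PSMD6 (75.3) lay below PSMD7 (77.1) in the TRiC-Halo inputs. PSMD8 stood at 218 and 225 (inputs) and 173 and 158 (pulldowns) in the TRiC-Halo line, against 337 and 325 (inputs) and 298 and 285 (pulldowns) in the PFD line. PSMD7 stood at 78.8 and 75.5 (inputs) and 65.6 and 65.3 (pulldowns) in the TRiC-Halo line, against 140.2 and 121 (inputs) and 102 and 134 (pulldowns) in the PFD line. Both were higher in both PFD inputs than in either TRiC-Halo input.

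Of the 7 chaperones of assembly 5 had mean input levels between 19.3 and 35.1 per kilobase, with PSMG2 and PSMG3 above them. PSMD5 and PSMD9 hold ATPases during base assembly. PSMD5 stood at 32.1 and 35.3 (inputs) and 28.3 and 28.8 (pulldowns) in the TRiC-Halo line, against 46.4 and 26.7 (inputs) and 47.3 and 43 (pulldowns) in the PFD line. PSMD9 stood at 15.5 and 17.9 (inputs) and 13.4 and 11.9 (pulldowns) in the TRiC-Halo line, against 22.5 and 21.2 (inputs) and 19.5 and 8.06 (pulldowns) in the PFD line. PSMD9 lay below PSMD5 in every library. PSMG1 and PSMG2 pair to build the alpha ring. PSMG2 stood at 318 and 347 (inputs) and 278 and 287 (pulldowns) in the TRiC-Halo line, against 244 and 312 (inputs) and 228 and 260.4 (pulldowns) in the PFD line. PSMG1 stood at 15.1 and 17.6 (inputs) and 12.8 and 19.4 (pulldowns) in the TRiC-Halo line, against 31.7 and 29.9 (inputs) and 30.5 and 25.2 (pulldowns) in the PFD line. The 2 partners of that pair thus differed 13.0-fold in mean input level, the range of their class. PSME3, a nuclear activator of the core, and PSME4, a large activator known from DNA repair and spermatogenesis, bounded the activators by mean, although PSME1 (216) and PSMF1 (172) lay above PSME3 in the TRiC-Halo inputs. PSME3 stood at 151 and 151 (inputs) and 121 and 131 (pulldowns) in the TRiC-Halo line, against 308 and 314 (inputs) and 266 and 299 (pulldowns) in the PFD line. PSME4 stood at 36 and 39.7 (inputs) and 40.5 and 45.7 (pulldowns) in the TRiC-Halo line, against 52.1 and 44.5 (inputs) and 45.6 and 50.3 (pulldowns) in the PFD line. PSME3 differed between the lines by more than either line's spread.

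The members with the lowest levels, PSMC1 and PSMA2, are genes whose reads are hard to assign. The gene counter gives a read to a gene only where it overlaps no other gene, and only unique alignments were kept. In GENCODE release 44 a further gene on the same strand covers 100% of the coding bases of PSMA2 (chr7:42916828-42932185), 88.6% of PSMA1, 87.6% of PSMA6, 68.3% of PSMD9 and 60.0% of PSMB10. For PSMC1 (chr14:90256527-90275429, hg38, + strand) all 1291 of its 30-base coding windows have an exact copy elsewhere in the genome, spread over 13 annotated processed pseudogenes on 8 chromosomes. These 6 genes stood between 1.21 and 27.8 per kilobase, with a median of 22.6, and the other 40 between 23.6 and 553, with a median of 189. PSMG1, at 23.6 the lowest of those 40, has neither overlap nor copies. Genes on the opposite strand cover 47.7% of the coding bases of PSMC1, 30.0% of PSMD7, 10.0% of PSMC5 and 7.19% of PSMD11. The authors' annotation release and the strand column counted are not given in the sources used here. The part of overlap and copies in these levels was not tested.

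To show how near the copies are, long stretches without a mismatch are given in lower case, 5′ to 3′ along the coding strand, from hg38. Some chromosomes were left out when these stretches were picked, so longer ones can exist. PSMA6P1, which holds the most copied windows of PSMA6, is not among those shown. PSMC1 shares 884 coding bases, from coding base 1 to 884, with PSMC1P1, a processed pseudogene at chr3:68635705-68636588 (+ strand), and the first 150 of them are shown. PSMA6 shares 126, from coding base 571 to 696, with PSMA6P2 at chrX:12826675-12826800 (+ strand).
PSMC1: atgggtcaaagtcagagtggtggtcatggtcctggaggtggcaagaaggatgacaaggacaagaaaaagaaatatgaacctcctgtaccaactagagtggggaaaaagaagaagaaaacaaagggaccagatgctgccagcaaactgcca
PSMA6: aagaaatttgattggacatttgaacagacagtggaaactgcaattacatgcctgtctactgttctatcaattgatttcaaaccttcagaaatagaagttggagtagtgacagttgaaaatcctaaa
A footprint of about the window's length from any part of these runs would align equally well at both places. In all, 21 members, PSMC1 and PSMA6 included, had at least 1 copied window, with shares of 62.5% for PSMC6, 52.1% for PSME2, 41.2% for PSMD4, 32.2% for PSMD10 and 25.7% for PSMD2. With their windows copied in part, PSMC6 stood at 84.6 per kilobase, PSME2 at 95.7 and PSMD4 at 121.

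**Figure D2:**
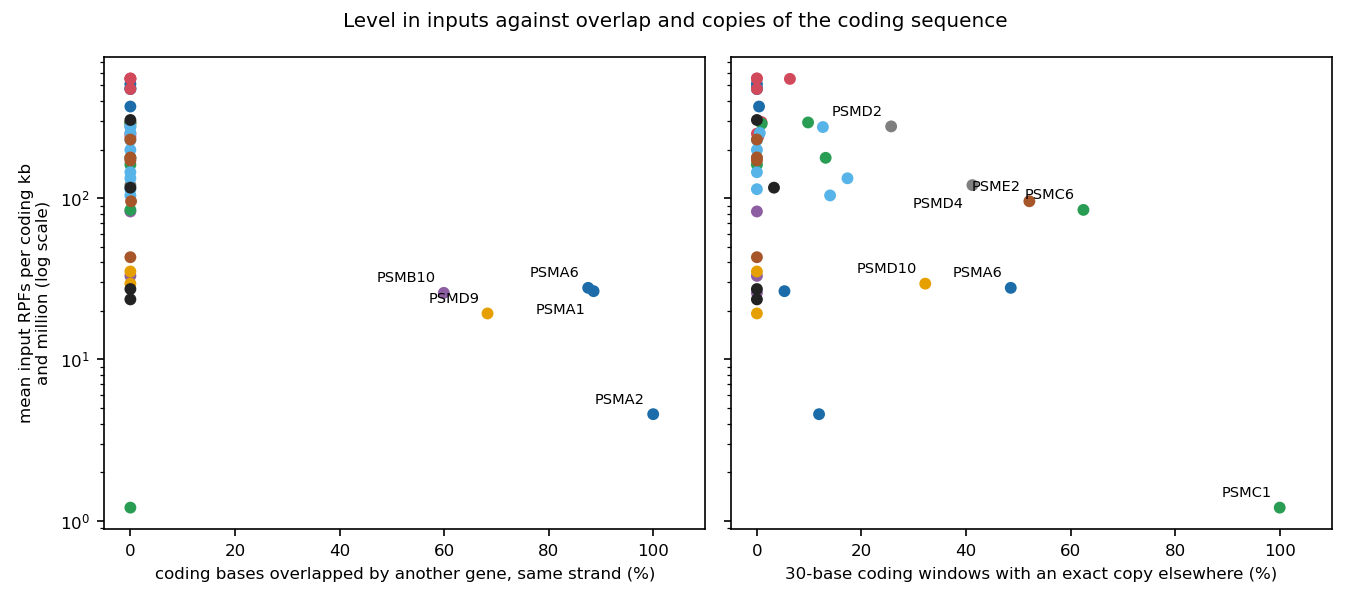
Mean level of each member over the 4 inputs (log scale) against the share of its coding bases that a same-strand gene overlaps (left) and the share of its 30-base coding windows with an exact copy elsewhere (right); colours are the classes of the plot of levels. The 5 members with an overlap of at least 50% lie under 30 per kilobase, and PSMC1, with every window copied, lies at 1.21.

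Genes with under 100 counts in a library need care. In the TRiC-Halo line PSMA2 had 30 and 56 input counts and 66 and 71 pulldown counts, and in the PFD line 82 and 58 input counts and 31 and 0 pulldown counts. PSMC1 had 59 and 68, 47 and 34, 22 and 9, and 0 and 69 counts in the same order. The 0 counts allow up to 0.109 CPM for PSMA2 in PFD pulldown replicate 2 and up to 0.315 CPM for PSMC1 in PFD pulldown replicate 1 (3 counts of the library, counting error only). PSMA6 had 85 counts in PFD pulldown replicate 1 against 746 in replicate 2, and PSMB9 had 66 in PFD input replicate 2. No direction is read from PSMA2 or PSMC1 by themselves below, but counts and medians over all members include them.

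The comparison of TRiC pulldown with input asks which messages are enriched among ribosomes that TRiC attends. By counts summed over each gene, proteasome genes were not enriched in it. The paper instead called interactions from enrichment at positions along the coding sequence, which gene totals do not show. Of 46 members 26 were lower in the pulldown and 0 higher, by edgeR's quasi-likelihood test with Benjamini-Hochberg adjustment over 17934 genes, where 10.6% of all genes were called lower and 8.64% higher. Among the 12697 protein-coding genes of the same count minimum, 12667 of which were tested, 13.7% were lower. The members' log2 fold changes had a median of −0.29, with 42 below 0, against −0.05 for those protein-coding genes. Both pulldown values lay below both input values for 41 members (all genes 31.2%), and both above for 3 (29.3%). The falls were small: the largest among called genes was 1.44-fold, and against a change of 1.5-fold the number called was 0. Over all genes that test called 64 of 17934 lower.

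That count depended on scaling and on the inputs. Without TMM, on library totals, 15 members were lower, where 7.09% of all genes were (all genes 1798 higher and 1271 lower, against 1550 and 1894), and with cyclic loess 14 (all genes 7.99% lower). Leaving out TRiC-Halo input replicate 1 left 15 (all genes 3.76%) and replicate 2 left 11 (4.97%), and with all 8 libraries in 1 fit, whose spread includes the PFD line, 0 were called. Over all genes the fit of all 8 libraries called only 15 of 18855 lower. The number of members below 0 stayed between 40 and 43 in all settings. Among the 31 members with a same-strand overlap below 50% of the coding bases and under 10% copied windows, 22 were lower, with a median of −0.30.

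**Figure D3:**
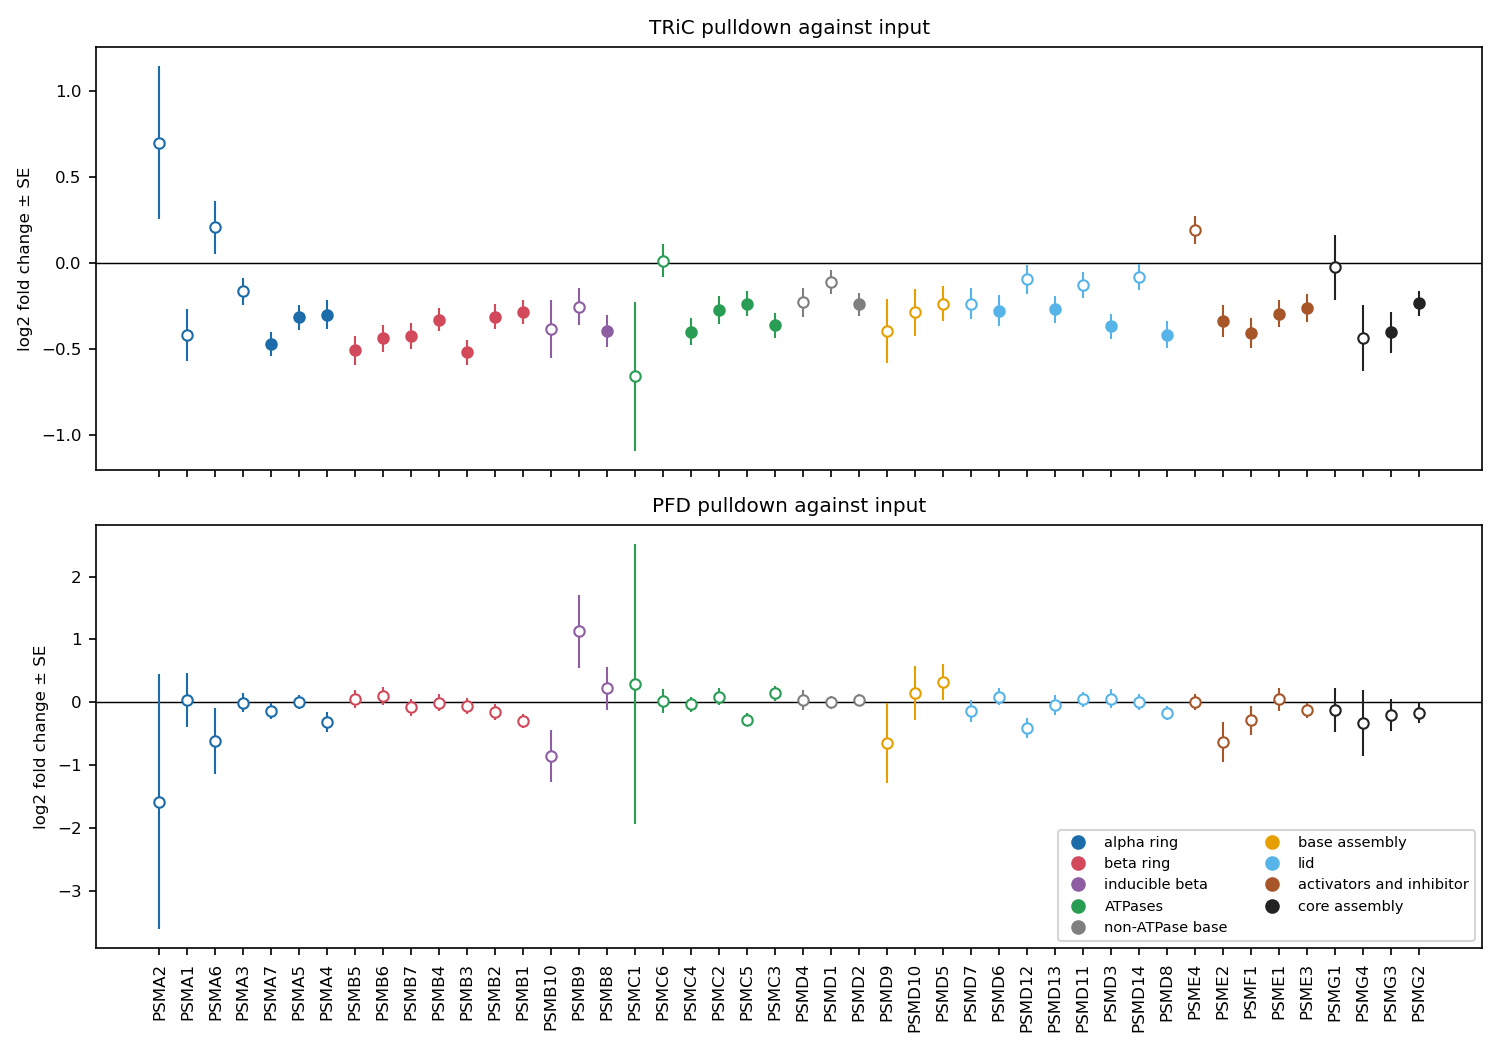
Log2 fold change of pulldown against input with its standard error for each member, in the TRiC-Halo line (top) and the PFD line (bottom), on axes of different range; filled points have an adjusted p under 0.05 and colours show classes. In the top panel 42 of 46 points lie below 0 and 26 are filled, and in the bottom panel none is filled.

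The beta ring was the class with every member called lower: all 7 subunits fell, with a median of −0.42 and a range of −0.52 to −0.28. PSMB3, a structural subunit, stood at 388 and 390.2 CPM in the inputs and 286 and 256 CPM in the pulldowns (log2 fold change −0.52 ± 0.07 (SE), adjusted p = 0.00015). PSMB5 stood at 162 and 164 CPM in the inputs and 123 and 106 CPM in the pulldowns (log2 fold change −0.51 ± 0.09 (SE), adjusted p = 0.00067). PSMB6, with the caspase-like site, stood at 187 and 182 CPM in the inputs and 141 and 130.4 CPM in the pulldowns (log2 fold change −0.44 ± 0.08 (SE), adjusted p = 0.00105). In each of these the 2 pulldowns were below the 2 inputs without overlap. PSMB7, with the trypsin-like site, stood at 199 and 202 CPM in the inputs and 152 and 147 CPM in the pulldowns (log2 fold change −0.43 ± 0.08 (SE), adjusted p = 0.00096). PSMB1, PSMB2 and PSMB4 fell by 0.28 to 0.33 on the log2 scale. Each of the 7 calls was lost in the fit of all 8 libraries and against a 1.5-fold change. Those of PSMB1 and PSMB2 were also lost without either TRiC-Halo input and with cyclic loess, and that of PSMB1 on library totals.

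In the alpha ring 3 of 7 fell, PSMA4, PSMA5 and PSMA7. The calls of PSMA4 and PSMA5 were lost in 5 and 4 of 13 other settings, among them cyclic loess and leaving out TRiC-Halo input replicate 2. PSMA7 showed the largest fall, from 457 and 454 CPM in the inputs to 342 and 314 CPM in the pulldowns (log2 fold change −0.47 ± 0.07 (SE), adjusted p = 0.00023). PSMA1 had a log2 fold change of −0.42 (adjusted p = 0.0644) and PSMA3 of −0.17 (adjusted p = 0.148). PSMA6 was above 0, at 0.21 (adjusted p = 0.377). Of the inducible subunits PSMB8 fell, and PSMB9 and PSMB10 had values of −0.26 and −0.38 without passing the test.

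The regulatory particle was mixed. Of the ATPases 4 of 6 fell, PSMC2, PSMC3, PSMC4 and PSMC5, while PSMC6 had a log2 fold change of 0.01. PSMC5 was among the smallest of the called falls, at 285 and 314 CPM in the inputs and 249.7 and 258 CPM in the pulldowns (log2 fold change −0.24 ± 0.07 (SE), adjusted p = 0.0326). PSMC2 stood at 218 and 243 CPM in the inputs and 197 and 184 CPM in the pulldowns (log2 fold change −0.27 ± 0.08 (SE), adjusted p = 0.022). Both had separate groups, but both calls were lost on library totals and with cyclic loess. In the lid 4 of 8 fell, with PSMD8 the lowest at 230.4 and 238 CPM in the inputs and 183 and 167 CPM in the pulldowns (log2 fold change −0.42 ± 0.08 (SE), adjusted p = 0.00131). PSMD13 stood at 143 and 146 CPM in the inputs and 117 and 123 CPM in the pulldowns (log2 fold change −0.27 ± 0.08 (SE), adjusted p = 0.0235). PSMD3 and PSMD6 were the other called lid genes. The call of PSMD6 was lost in 9 of 13 other settings, library totals and cyclic loess included, and that of PSMD3 in 2. PSMD14, the deubiquitinase of the lid, was near 0 at −0.08, as were PSMD12 at −0.10 and PSMD11 at −0.13, and none of these 3 passed. Of the other base subunits PSMD2 fell, from 610.2 and 634 CPM in the inputs to 540.5 and 512 CPM in the pulldowns (log2 fold change −0.24 ± 0.07 (SE), adjusted p = 0.0158).

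Of the activators and inhibitors 4 of 5 fell. PSMF1, an inhibitor of the core in vitro, fell by 0.41 on the log2 scale, PSME2 by 0.34 and PSME1 by 0.29. The calls of PSME1 and PSME2 were lost on library totals and without either TRiC-Halo input, that of PSME1 also with cyclic loess. PSME3 stood at 121 and 121 CPM in the inputs and 96.9 and 105 CPM in the pulldowns (log2 fold change −0.26 ± 0.08 (SE), adjusted p = 0.0343). PSME4, whose coding sequence is the longest of the members at 5529 bases, went the other way at 199 and 219 CPM in the inputs and 224 and 253 CPM in the pulldowns (log2 fold change 0.19 ± 0.08 (SE), adjusted p = 0.115). Its 2 pulldowns lay above both inputs, and under 5 alternatives, among them cyclic loess and the replicate block, it was the 1 member called higher. By edgeR it was also the 1 member higher at an unadjusted p under 0.05 (all genes 15.3%), and DESeq2 called 0 higher.

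Assembly chaperones followed in part. PSMG2 stood at 262 and 286 CPM in the inputs and 229 and 237 CPM in the pulldowns (log2 fold change −0.24 ± 0.07 (SE), adjusted p = 0.0343). PSMG3 fell by 0.40 on the log2 scale, a call that DESeq2 did not make. The 3 base chaperones, PSMD5, PSMD9 and PSMD10, had log2 fold changes of −0.24, −0.40 and −0.29 and none passed. The falls of PSMG2, PSMC5, PSMD2, PSME3 and PSMD13 were each lost without TRiC-Halo input replicate 1 and without replicate 2, and that of PSMC2 without input replicate 2 or pulldown replicate 2.

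Other gene groups show the range in which these values lie. TRiC's own 8 subunits had a median of −0.20 with 3 lower, and 84 cytosolic ribosomal protein genes a median of −0.26 with 36 lower and 2 higher. Of 27 genes that work with the proteasome and are no members, 6 were lower and 0 higher, with a median of −0.15. The 6 were the ubiquitin receptor ADRM1 (−0.50), the ubiquitin gene UBB (−0.45), the shuttle factor RAD23B (−0.34), the segregase VCP (−0.25) with its cofactor UFD1 (−0.31), and the ubiquitin-activating enzyme UBA1 (−0.26). Log2 fold change and log2 coding length correlated across the 46 members with Pearson's r = 0.26 and Spearman's rho = 0.33, and across protein-coding genes with 0.38 and 0.44. Genes of a library are not independent replicates. The 29 members with under 1000 coding bases had a median of −0.32 with 17 lower, and the 17 longer ones a median of −0.24 with 9 lower.

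The same comparison for PFD found no member that passed. By edgeR 0 of 46 were lower or higher, where 0.191% of 14111 genes were lower and 0.0496% higher. DESeq2 (all genes 1.49% lower and 1.44% higher) and cyclic loess (0.305% and 0.0992%) also called 0 members, and 3 members had an unadjusted p under 0.05, a share near the 6.93% of all genes. The members' median was −0.02, with 21 above 0 and 25 below, and for 33 of 46 the pulldown and input values overlapped (all genes 61.8%). Leaving out PFD pulldown replicate 2 gave 6 members lower and 1 higher, where 8.76% of all genes were lower and 7% higher, with a median of −0.12 over members and −0.08 over all genes. Leaving out replicate 1 gave 1 lower (all genes 1.66%). TRiC subunits had a median of −0.01 and cytosolic ribosomal proteins of 0.10, without a call.

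The members at the ends of the range were measured with large errors. PSMB9 stood at 7.64 and 6.37 CPM in the inputs of the line and 16.6 and 13.7 CPM in its pulldowns (log2 fold change 1.13 ± 0.58 (SE), adjusted p = 0.782). Both pulldown values lay above both inputs. PSMD5 stood at 70.1 and 40.3 CPM in the inputs of the line and 71.5 and 65 CPM in its pulldowns (log2 fold change 0.32 ± 0.29 (SE), adjusted p = 0.927), with overlapping groups, and turned to −0.02 without PFD input replicate 2. PSMB10 stood at 24.9 and 33.4 CPM in the inputs of the line and 11.7 and 20.3 CPM in its pulldowns (log2 fold change −0.86 ± 0.42 (SE), adjusted p = 0.767). Its 2 pulldowns were below its 2 inputs, and without PFD pulldown replicate 2 the value was −1.27 (adjusted p = 0.0241), without replicate 1 −0.55. PSMA2 had the lowest fitted value, −1.58 ± 2.03 (SE), which rests on a library at 0 counts. The beta ring, called lower throughout in the TRiC pulldown, had a median of −0.06 here, with 2 above 0 and 5 below.

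Whether TRiC and PFD pulldowns differed was tested in 1 fit of all 8 libraries, as the TRiC log2 fold change minus the PFD log2 fold change. No member passed in edgeR, where 0.0212% of 18855 genes had a larger and 0.0159% a smaller enrichment with TRiC. At an unadjusted p under 0.05 there were 10 members (all genes 14.8%), and DESeq2 called 4 smaller and 0 larger (all genes 3.23% and 3.15%). The median difference over members was −0.20, with 34 below 0 and 12 above, against −0.03 for protein-coding genes. TRiC subunits had a median of −0.20 and cytosolic ribosomal proteins of −0.34. Without PFD pulldown replicate 2 the counts were 3 larger and 4 smaller, where all genes had 11.6% and 6.73%, and without replicate 1 they were 1 and 3, against 2.93% and 2.69%. So the fall of 26 members in the TRiC pulldown and the absence of calls in the PFD pulldown are not shown to differ.

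At the ends of this range, PSMA2 had log2 fold change 2.36 ± 2.31 (SE), adjusted p = 0.691 and PSMC1 log2 fold change −0.99 ± 2.13 (SE), adjusted p = 0.91, both with libraries at 0 counts. PSMA6 had log2 fold change 0.81 ± 0.64 (SE), adjusted p = 0.601, which became 1.85 (adjusted p = 0.00543) without PFD pulldown replicate 2 and 0.24 without replicate 1. PSMB9 had log2 fold change −1.36 ± 0.33 (SE), adjusted p = 0.176, the lowest value of the members. It passed with DESeq2 (adjusted p = 0.00434) and when PFD pulldown replicate 1 or 2 was left out (adjusted p = 0.0332 and 0.00647), and not in the other 12 settings. For PSMB9 the TRiC pulldowns (30.8 and 30 CPM) were below their inputs (36.6 and 36 CPM), and the PFD pulldowns (16.6 and 13.7 CPM) were above theirs (7.64 and 6.37 CPM).

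The inputs of both lines show which proteasome genes differed in RPF counts between them. Without mRNA libraries, translation and mRNA level cannot be told apart. Neither labels nor methods say whether the lines were prepared together, so line, clone and any difference in preparation cannot be told apart. In bulk libraries a change in few cells and in all cells looks alike. Expressed as PFD input minus TRiC-Halo input, 22 of 46 members were higher and 8 lower by edgeR, where 17.7% of 16341 genes were higher and 22.6% lower. The median over members was 0.35, against −0.06 for protein-coding genes and −0.11 for all genes tested. With cyclic loess that last value moved to 0.03 and the median over members to 0.235. Members were not alone: all 8 TRiC subunits were higher, with a median of 0.56, and 63 of 83 cytosolic ribosomal proteins, with a median of 0.82. Against a change of 1.5-fold 3 members were higher and 2 lower (all genes 7.24% and 12.5%). The summed epithelial markers were lower in the PFD inputs (29.6 and 28.9 CPM) than in the TRiC-Halo inputs (91.8 and 94.5 CPM), and their part in these differences was not tested.

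Of the 8 lid genes 7 were called higher, with a median of 0.63 over the 8. All 8 had both PFD inputs above both TRiC-Halo inputs, as had 32% of all genes. PSMD12 showed the largest rise, at 95.3 and 100.4 CPM in the TRiC-Halo inputs and 278 and 253 CPM in the PFD inputs (log2 fold change 1.44 ± 0.08 (SE), adjusted p = 0.00025). PSMD6 stood at 99.9 and 99.7 CPM in the TRiC-Halo inputs and 204 and 199 CPM in the PFD inputs (log2 fold change 1.02 ± 0.07 (SE), adjusted p = 0.00043). Replicates of a group lay close together beside the difference, and both calls held in all 12 other settings. PSMD7 rose by 0.76 on the log2 scale, PSMD14 by 0.64, PSMD11 by 0.62, PSMD8 by 0.58 and PSMD13 by 0.35, the last a call lost in 6 of 12 other settings, among them cyclic loess and leaving out either TRiC-Halo input. PSMD3, at 0.31, had an adjusted p of 0.0553.

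Elsewhere the directions were mixed within classes. PSME3 rose, at 121 and 121 CPM in the TRiC-Halo inputs and 246 and 252 CPM in the PFD inputs (log2 fold change 1.04 ± 0.06 (SE), adjusted p = 0.00033), while PSME1, of the interferon-inducible activator, fell, at 158 and 167 CPM in the TRiC-Halo inputs and 108 and 104 CPM in the PFD inputs (log2 fold change −0.61 ± 0.08 (SE), adjusted p = 0.00304). The groups were separate in both. PSMA7 was lower, at 457 and 454 CPM in the TRiC-Halo inputs and 266 and 235 CPM in the PFD inputs (log2 fold change −0.86 ± 0.08 (SE), adjusted p = 0.0009), and PSMA4 too, at 425 and 497 CPM in the TRiC-Halo inputs and 318 and 361 CPM in the PFD inputs (log2 fold change −0.44 ± 0.1 (SE), adjusted p = 0.021). In the same ring PSMA5 rose by 0.63 on the log2 scale. PSMA6 rose, at 15.1 and 13.7 CPM in the TRiC-Halo inputs and 25.2 and 30.1 CPM in the PFD inputs (log2 fold change 0.94 ± 0.19 (SE), adjusted p = 0.0131), a call lost without either TRiC-Halo input. PSMG1 stood at 13 and 15.2 CPM in the TRiC-Halo inputs and 27.4 and 25.9 CPM in the PFD inputs (log2 fold change 0.92 ± 0.18 (SE), adjusted p = 0.0132), and its call was also lost without either TRiC-Halo input.

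In the beta ring 3 rose (PSMB2, PSMB5 and PSMB7) and 2 fell (PSMB3 and PSMB4). PSMB3 stood at 388 and 390.2 CPM in the TRiC-Halo inputs and 268 and 305 CPM in the PFD inputs (log2 fold change −0.44 ± 0.08 (SE), adjusted p = 0.00915). PSMB7 and PSMB5 carry peptidase sites, and PSMB6, which carries the remaining one, had a log2 difference of −0.06 with overlapping groups. Of the ATPases PSMC4, PSMC5 and PSMC6 rose and PSMC3 fell. Among the other base subunits PSMD1 and PSMD2 rose, and PSMD4 was at 0.00 (adjusted p = 0.984). PSME4 and PSMG3 also rose, by 0.35 and 0.46 on the log2 scale. The call of PSMG3 was lost in 9 of 12 other settings, DESeq2 and library totals included, that of PSMC6 in 5, and those of PSME4 and PSMB4 in 4 each. No base chaperone passed.

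The inducible subunits split. PSMB9 was the member with the largest fall, at 36.6 and 36 CPM in the TRiC-Halo inputs and 7.64 and 6.37 CPM in the PFD inputs (log2 fold change −2.36 ± 0.19 (SE), adjusted p = 0.00067), a 5.14-fold difference between groups that lie far apart. PSMB8 fell with it, at 76.3 and 78.4 CPM in the TRiC-Halo inputs and 63.5 and 55.8 CPM in the PFD inputs (log2 fold change −0.37 ± 0.11 (SE), adjusted p = 0.0412), though that call was lost without either TRiC-Halo input. PSMB10 rose, at 14.2 and 12.3 CPM in the TRiC-Halo inputs and 24.9 and 33.4 CPM in the PFD inputs (log2 fold change 1.13 ± 0.22 (SE), adjusted p = 0.012). That call was lost in the fit of all 8 libraries and against a 1.5-fold change. TAP1, a peptide transporter gene that is no member and was looked at because it is transcribed away from PSMB9 across a shared upstream region, stood at 77.4 and 69.1 CPM in the TRiC-Halo inputs and 47.5 and 52.5 CPM in the PFD inputs (log2 fold change −0.55 ± 0.12 (SE), adjusted p = 0.0164). Its partner TAP2 was higher in the PFD inputs, by 0.97. Of the 5 members that interferon is known to induce, PSMB8, PSMB9 and PSME1 were thus lower in the PFD inputs and PSMB10 higher, and PSME2, the partner of PSME1, had a log2 difference of −0.07 with an adjusted p of 0.611.

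The stretches just before the start sites of PSMB9 and PSMD12, the lowest and the highest of the called genes in this comparison, are shown from RefSeq (GRCh38.p14), 5′ to 3′ along the gene's strand, with letters of a searched motif in capitals. They lie at chr6:32853942-32854191 (+ strand) and chr17:67366578-67366827 (− strand), and each is 250 bases long.
PSMB9: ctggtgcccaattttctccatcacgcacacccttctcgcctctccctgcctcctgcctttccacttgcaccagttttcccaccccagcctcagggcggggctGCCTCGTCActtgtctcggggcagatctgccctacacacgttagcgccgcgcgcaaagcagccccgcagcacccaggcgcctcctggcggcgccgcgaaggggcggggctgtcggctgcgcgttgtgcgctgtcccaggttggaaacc
PSMD12: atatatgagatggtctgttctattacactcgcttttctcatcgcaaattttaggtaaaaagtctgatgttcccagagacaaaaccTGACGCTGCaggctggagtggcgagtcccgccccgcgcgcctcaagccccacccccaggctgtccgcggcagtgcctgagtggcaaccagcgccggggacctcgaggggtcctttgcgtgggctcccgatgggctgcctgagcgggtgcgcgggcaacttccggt
Each holds 1 match to TGACNNNGC, the core of the antioxidant response element that NFE2L1, a regulator of proteasome genes, can bind, on either strand. No match to TTCNNNGAA, the interferon gamma activated site, or to the interferon stimulated response element, searched as GAAA, any 2 bases and GAAA, was found in these 2 stretches. Over windows from 250 bases before to 50 after a start site, which RefSeq gave for 40 of the 46 members with 49 start sites, TGACNNNGC occurred in 15 (30.6%), against 13.3% of 35116 windows of all genes. TTCNNNGAA occurred in 7 (14.3%) against 7.66%, and the latter in 7 (14.3%) against 3.57%. A match is a run of letters and no evidence of binding. NFE2L1 itself stood at 416 and 402 CPM in the TRiC-Halo inputs and 379 and 359 CPM in the PFD inputs (log2 fold change −0.15 ± 0.06 (SE), adjusted p = 0.104).

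Genes that work with the proteasome shifted in the same comparison, 15 of 27 higher and 3 lower with a median of 0.405. The largest rises were those of DDI2, the protease that activates NFE2L1, by 1.34 on the log2 scale, UCHL5, a deubiquitinase of the base, by 1.08, and RAD23B by 0.97. The others that rose were ADRM1, UFD1, PITHD1, VCP, RPS27A, POMP, ZFAND5, TXNL1, UBQLN1, NPLOC4, ECPAS and UBE3C, by 0.23 to 0.90. UBA1, which activates ubiquitin for all later steps, fell from 1366 and 1347 CPM in the TRiC-Halo inputs to 627 and 638 CPM in the PFD inputs (log2 fold change −1.10 ± 0.05 (SE), adjusted p = 0.00015). UBB fell by 0.80 and USP14, a deubiquitinase of the base, by 0.74.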

How the data were processed

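RPFs of 8 libraries from 2 tagged U-2 OS lines were analysed. The deposited values are raw counts per gene, which the authors made from trimmed, demultiplexed and UMI-collapsed reads: those matching non-coding RNA were removed with Bowtie2 2.4.2, the rest were aligned to hg38 with STAR 2.7.10a (2 mismatches or fewer), and STAR counted uniquely aligned reads per gene. The annotation release and the strand column are not given in the sources used here. The count tables hold 60664 identifiers, of which 60463 are in GENCODE 44, which gave symbols, coding lengths and overlaps. The 9523128 to 32637658 counts per library make counting error small for most members, so that the spread between the 2 replicates limits precision.

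Pulldown and input of a line, and the inputs of both lines, were compared with edgeR 4.0.16 in R 4.3.3 (TMM, filterByExpr, glmQLFit, glmQLFTest, no replicate block, two-sided, Benjamini-Hochberg over all genes tested, adjusted p under 0.05), and the difference between enrichments as an interaction over 8 libraries. Standard errors are the absolute log2 fold change over the square root of F. CPM are TMM-scaled over all 8 libraries. Alternatives were DESeq2 1.42.0, library totals, cyclic loess with limma 3.58.1, protein-coding nuclear genes alone, other count filters, a replicate block, 1 fit of all libraries, glmTreat and leaving out each library. The fits were tested on simulated data. Copies are exact matches of 30-base coding windows on the main chromosomes of hg38.

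Values are given for members called in a comparison (the 6 largest and 6 smallest log2 fold changes where over 12 were called), for the 2 highest and 2 lowest where none was, for the highest and lowest level of each class and for members with under 100 counts in a library. Members and gene lists were chosen with earlier results of these data known. Some genes of the list of those that work with the proteasome are not reported here, and its counts and medians leave them out. TAP1, TAP2, NFE2L1, the promoters, the motifs and the members without overlap and copies were chosen after values were seen.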

Additional observations from a re-analysis of the deposited data

How the results depend on the processing

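Of the 26 members lower in the TRiC pulldown, 15 were called on library totals, 14 with cyclic loess, 0 with all 8 libraries in 1 fit and 0 with glmTreat against a 1.5-fold change, and between 11 and 27 when a library was left out. The count of members higher, 0, became 1 with cyclic loess, with protein-coding nuclear genes alone, with at least 100 counts in every library and with the replicate block, and lay between 0 and 1 when a library was left out; the member was PSME4. Over all genes, the fit of all 8 libraries called 15 of 18855 lower in the TRiC pulldown, and glmTreat 64 of 17934. The members' median of −0.292 moved to −0.245 on library totals, −0.199 with cyclic loess, −0.252 with protein-coding nuclear genes alone and −0.227 with at least 100 counts. In the PFD pulldown, leaving out a library gave 0 to 1 members higher and 0 to 6 lower, and moved the median of −0.022 as far as −0.118 without pulldown replicate 2 (−0.03 without pulldown replicate 1). For the difference it gave 0 to 3 larger and 0 to 4 smaller, and DESeq2 called 4 smaller. In the inputs, glmTreat called 3 members higher and 2 lower against 22 and 8. Over all genes it called 1183 of 16341 higher and 2046 lower. The fit of all 8 libraries called 5 members lower and lost 10 of the calls, higher and lower together. Over all genes that fit called 1872 of 18855 higher and 1986 lower. Leaving out a library moved the members' median of 0.353 to between 0.26 and 0.387, and that of all genes to between −0.307 and −0.079. The direction turned for PSMD5 in the PFD pulldown (−0.022 without PFD input replicate 2, and up to 0.747 without PFD input replicate 1) and for PSMC1 in the difference (0.38 with the replicate block and, leaving out a library, −1.94 without PFD pulldown replicate 1 to 6.86 without replicate 2, which leaves the PFD pulldown with a library at 0 counts). The cause of the other moves was not tested.

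Labels share only replicate numbers between input and pulldown, and the methods take total RNA and the pulldown from ribosome pellets. With the replicate block 31 members were lower in the TRiC pulldown, against 26 without it. Over all genes 2652 of 17934 were lower with the block and 1894 without it. Deviations of same-numbered libraries correlated at 0.15 in the TRiC-Halo line and −0.01 in the PFD line, so the numbers were not taken as pairs, and the replicate block changed no other count of member calls by over 1.5 times. With 2 libraries a group, a fit without a library assumes that the lone one varies like the others. Members under 100 counts, PSMA2 and PSMC1 above all, have no settled direction at this depth.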
